A study of Mus musculus with 4 samples.

Results

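Collagen and laminin genes were followed in mouse prefrontal cortex across 4 diet and genotype groups. The genes were taken from the array annotation by name, that is every gene name that begins with Col, digits, an a and a digit, or with Lama, Lamb or Lamc and a digit, and a gene counted as a member when 1 of its probes passed the scanner software's background flag on at least 1 array. Of 56 such names 55 were members, out of 22600 gene names on the array that passed in the same way. They comprised 43 collagen chains, 11 laminin chains and Col4a3bp, whose current symbol is Cert1 and which encodes a ceramide transfer protein and no collagen chain. Of the 55 members, 53 passed the flag on every array, and these 53 are the genes compared here. Col28a1 passed on wild-type starch alone, at a level of 0.00879, and Col4a3 on heterozygous sucrose alone, at 0.00854. Col6a6 passed on no array, with its brightest probe between 0.00137 and 0.00166. Levels here and below are background-subtracted signals as multiples of the 75th percentile of the array.

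The mice were 3-month-old B6J animals, either wild-type or heterozygous for Glo1, which encodes the methylglyoxal-detoxifying enzyme glyoxalase 1. They had eaten starch or sucrose for about 70 days after weaning at postnatal day 21, so the groups were wild-type starch (the study's control), wild-type sucrose, heterozygous starch and heterozygous sucrose. RNA from 3 mice of a group was pooled, and 200 ng of each pool was labelled with Cy3 for 1 one-colour array, with all arrays on 1 slide. With 1 array per group no difference between arrays below has a replicate error or a p-value (an additive model over all 4 arrays is given at the end), an effect of the position on the slide cannot be told apart from that of the group, and neither the kind of Glo1 allele nor the sex of the mice is given in the sources used here.

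Collagens are trimers of alpha chains wound into a triple helix, which requires glycine at the first place of each Gly-X-Y unit along the chain. Fibril-forming collagens such as types I, III and V build the fibres of meninges and vessel walls, whereas type IV forms the sheet-like network of basement membranes and type VIII a network found beneath endothelia and in other specialised matrices. Laminins are cross-shaped heterotrimers of an alpha, a beta and a gamma chain that polymerise on cell surfaces and, linked by nidogen to the type IV network, make up basement membranes. In brain most of this matrix lies around blood vessels, in the pia and arachnoid and under the choroid plexus, and there is little in the neuropil.

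The repeat that defines the family can be read in some of the 60-base probes themselves, which are shown for that reason. The 4 probes below are the only ones among the 125 probes of these names in which a GGN codon, the codon of glycine, recurs every 9 bases over the whole probe (capitals). Over the whole array 9 of 56605 probes had this pattern, the other 5 being those of Cplx2, Fcnb, Scara5, Sox5 and Vash1, a list drawn up after the search. Positions are those of the files, on build mm9, and a span over 60 bases is that of a probe that aligns with a gap.
Col11a2, chr17:34189287-34189453, plus strand: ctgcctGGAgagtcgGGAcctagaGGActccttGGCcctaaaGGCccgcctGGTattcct
Col6a3, chr1:92689602-92690594, minus strand: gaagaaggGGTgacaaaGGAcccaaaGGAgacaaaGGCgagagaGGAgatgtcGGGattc
Col5a3, chr9:20590066-20590795, minus strand: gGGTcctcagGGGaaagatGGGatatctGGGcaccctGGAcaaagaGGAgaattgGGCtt
Col15a1, chr4:47283786-47283845, plus strand: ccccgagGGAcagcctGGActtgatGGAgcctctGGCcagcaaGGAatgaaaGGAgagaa
Only the Col15a1 probe was the brightest of its gene, and its levels were low on every array, at 0.0131 on wild-type starch, 0.00949 on wild-type sucrose, 0.00947 on heterozygous starch and 0.0110 on heterozygous sucrose.

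Between 77.6% and 80.2% of the spots on an array passed the background flag, and no spot was saturated. Quartiles of mean signal were set over the 42094 probes, and not genes, that passed the flag on every array. At their brightest probes 10 of the 55 members lay in the dimmest quartile, 20 in the next, 18 in the one above it and 7 in the brightest. The precision within an array can be read from probes printed 10 times: the SD expected for a log2 difference of single spots was 0.0590 in the brightest quartile (291 such probes), 0.109 in the quartile below (5 probes), 0.130 in the one below that (3 probes) and 0.631 in the dimmest (1 probe). These values cover spot-to-spot error alone, and leave out the differences between mice, pools and hybridisations. The cortical neuron markers Slc17a7, Tbr1, Neurod6, Rbfox3 and Gad1 passed the flag on every array, Rbfox3 with levels from 29.0 to 29.8.

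The heterozygous sucrose array held the clearest differences among these genes. Col8a1 and Col8a2, the 2 chains of type VIII collagen, and Col9a3, the alpha3 chain of type IX, were each at least 2-fold above all other arrays there. That is 3 of 53 members, against 0.785% of all genes that were 2-fold above each other array on heterozygous sucrose, and no member stood out in this way on another array (0.218% of genes on wild-type starch, 0.131% on wild-type sucrose and 0.174% on heterozygous starch). The comparisons that hold the heterozygous sucrose array (diet in heterozygous mice, genotype on sucrose, both factors and the interaction) share it, so the appearance of these genes in each of them is a single observation.

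Counted by comparison, with each gene at its brightest probe, sucrose against starch in wild-type mice gave 1 member past 2-fold (Col7a1, lower), against 1.66% of all genes. In heterozygous mice 4 members passed (Col4a4, Col8a1, Col8a2 and Col9a3, all higher on sucrose), against 1.84%. Col7a1 fell short in wild-type mice with normexp (-0.89), and Col4a4 fell short in heterozygous mice under 4 of 9 alternatives of processing. For genotype on starch no member passed, against 0.889%. On sucrose 4 did (Col8a1, Col8a2 and Col9a3 higher in heterozygous mice, Col17a1 lower), against 1.92%. With both factors changed, heterozygous sucrose against wild-type starch, 4 members were higher (Col4a4, Col8a1, Col8a2 and Col9a3), against 2.10% of genes in either direction. With normexp this count was 2, as Col4a4 (0.39) and Col9a3 (0.76) fell below 2-fold, and 0.711% of genes passed. The interaction (the diet difference of heterozygous mice less the one of wild-type mice) exceeded a log2 value of 1 at 3 members (Col8a1, Col8a2 and Col9a3), against 2.87%. At 1.5-fold the counts in the same order of comparisons were 5, 8, 1, 8, 9 and 8 of 53, against 6.41%, 5.68%, 4.12%, 4.96%, 7.58% and 8.44% of genes.

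**Figure D1:**
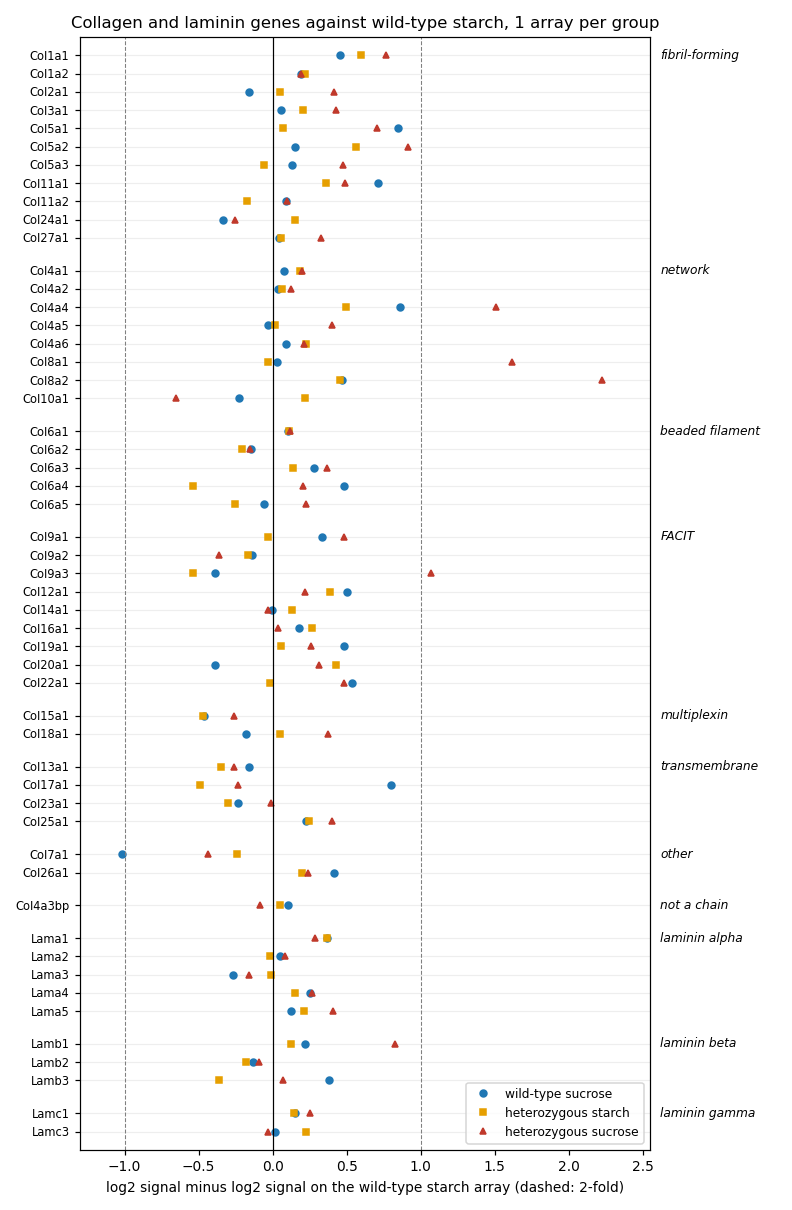
Log2 difference of 52 of the 53 members, each from its own signal on the wild-type starch array, for the other 3 arrays, with genes ordered by the kind of chain and dashed lines at 2-fold. Most points lie within 2-fold, and the triangles of Col8a2, Col8a1, Col4a4 and Col9a3 on heterozygous sucrose lie beyond it at 2.22, 1.62, 1.51 and 1.07.

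Col8a1 had levels of 0.525 on wild-type starch, 0.535 on wild-type sucrose, 0.514 on heterozygous starch and 1.62 on heterozygous sucrose. The first 3 arrays were alike and the last was high. The diet difference was thus 0.03 in wild-type mice and 1.65 (3.14-fold) in heterozygous mice, and the genotype difference -0.03 on starch and 1.59 on sucrose. The gene had 1 probe (chr16:57627033-57627092, minus strand, mm9), shown because this reading rests on it alone.
Col8a1: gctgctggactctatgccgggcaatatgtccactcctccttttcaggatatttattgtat
Col8a2, whose product can trimerise with that of Col8a1 or with itself, had levels of 0.0705, 0.0976, 0.0968 and 0.329 in the same order of arrays (probe at chr4:125991441-125991500, mm9). Again heterozygous sucrose was high, and wild-type starch was the lowest array. The log2 differences were 0.47 and 1.77 for diet in wild-type and heterozygous mice, 0.46 and 1.75 for genotype on starch and sucrose, and 2.22 (4.67-fold) for both factors. A dimmer probe of Col8a2, which failed the flag on heterozygous starch, gave at least 1.05 for diet in heterozygous mice and 1.17 for genotype on sucrose. It gave 0.68 for both factors, below 2-fold, and -0.50 for diet in wild-type mice. Its bound for genotype on starch was -0.38, so with this probe heterozygous sucrose was still the high array but wild-type starch was not the lowest.

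Since the 2 type VIII genes were high on the same array, the 250 bases before their RefSeq start sites are shown (GRCm38.p6; 54 of the 55 member names matched a RefSeq symbol). Capitals mark GGGCGG or its reverse complement CCGCCC, the core of the GC box, searched on both strands with overlaps allowed.
Col8a1, chr16:57754738-57754987, minus strand: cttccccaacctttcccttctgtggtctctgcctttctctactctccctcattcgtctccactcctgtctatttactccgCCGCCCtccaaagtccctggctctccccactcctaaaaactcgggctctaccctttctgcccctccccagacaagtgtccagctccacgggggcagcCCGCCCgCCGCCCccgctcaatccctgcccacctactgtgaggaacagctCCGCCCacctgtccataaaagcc
Col8a2, chr4:126286544-126286793, plus strand: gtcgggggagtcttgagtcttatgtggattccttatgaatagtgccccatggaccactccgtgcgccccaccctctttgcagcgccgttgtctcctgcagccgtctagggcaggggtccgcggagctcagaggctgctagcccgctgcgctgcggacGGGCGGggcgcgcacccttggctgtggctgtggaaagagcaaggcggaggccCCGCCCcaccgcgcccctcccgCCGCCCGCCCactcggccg
Each window held 4 matches. The same motif was present in 32.7% of 32851 windows of this length in the table and in 23 of the 43 windows of member genes (53.5%). TATAAA (12.4% of windows, 5 of the 43 member windows) and CCAAT (33.8%, 14 of the 43) were in neither of the windows shown. A match is a description of the letters and not a binding site.

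Col9a3 encodes a chain of type IX collagen, a fibril-associated collagen best known from cartilage. Its levels were 0.0925, 0.0707, 0.0636 and 0.194 on wild-type starch, wild-type sucrose, heterozygous starch and heterozygous sucrose. Heterozygous sucrose was again the high array. Diet differed by -0.39 in wild-type and 1.61 (3.05-fold) in heterozygous mice, which gave the largest interaction of the 53 members, 1.998. Another probe of the gene gave 1.58 for diet in heterozygous mice, 1.43 for genotype on sucrose and 1.79 for the interaction. The brighter probe aligns with a gap (chr2:180350553-180351135, plus strand, mm9).
Col9a3: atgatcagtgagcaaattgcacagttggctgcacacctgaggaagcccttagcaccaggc
The partner chains of type IX did not pass 2-fold: Col9a1 had levels of 0.0590, 0.0745, 0.0578 and 0.0822, and Col9a2 of 0.424, 0.385, 0.377 and 0.330, the latter being lowest on heterozygous sucrose.

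Lamb1, the beta1 chain shared by several laminins of vessels and epithelia, was the laminin that differed most on heterozygous sucrose. Its levels were 1.40, 1.63, 1.53 and 2.48 on wild-type starch, wild-type sucrose, heterozygous starch and heterozygous sucrose (brightest probe at chr12:32014411-32014470, mm9). The last array was high, by 0.70 for diet in heterozygous mice and 0.61 for genotype on sucrose, below 2-fold in both. Its 2 other probes on every array gave 0.85 and 0.70 for diet in heterozygous mice, although 1 of them also gave 1.03 for diet in wild-type mice, where the brightest gave 0.22.

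Genes that mark the choroid plexus epithelium and the ependyma had the same high array. The 10 choroid plexus markers summed to levels of 4.86, 6.71 and 6.12 on wild-type starch, wild-type sucrose and heterozygous starch and to 76.8 on heterozygous sucrose, and 9 of the 10 were past 2-fold for genotype on sucrose and 8 of 9 measured for diet in heterozygous mice. The 5 ependymal markers summed to 1.27, 0.983, 1.01 and 2.88, with 4 of 5 past 2-fold for genotype on sucrose and 3 of 4 measured for diet in heterozygous mice. No marker of either list was below background on all arrays, and Slc4a5 and Tmem212 were below it on some. Markers of meningeal and vascular fibroblasts (11 genes) summed to 9.41, 9.03, 10.2 and 11.97, those of endothelium (9 genes) to 33.3, 25.1, 30.2 and 25.2, and those of mural cells (11 genes) to 17.7, 17.7, 18.0 and 18.0, with no gene of these 3 lists past 2-fold. At 1.5-fold, 2 of the 11 fibroblast markers (Dcn and Igf2) were higher on heterozygous sucrose than on heterozygous starch and than on wild-type sucrose, but 7 of the 11 were below zero for diet in heterozygous mice (median -0.19) and 9 of the 11 above zero for genotype on sucrose (median 0.06), and Dcn alone went from 2.95 to 5.19, more than the sum did. The part of these cells in the differences of Col8a1, Col8a2, Col9a3 and Lamb1 was not tested, and in pooled tissue RNA more cells of a type and more RNA per cell cannot be told apart.

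**Figure D2:**
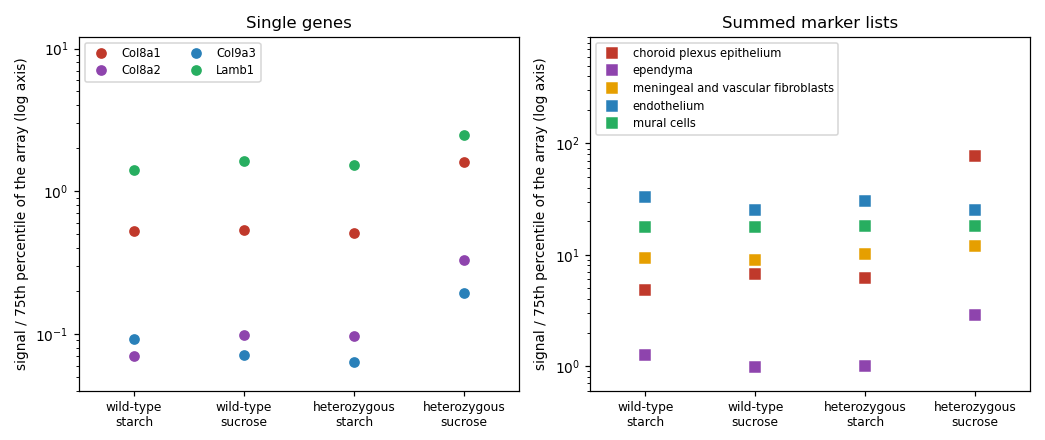
Signal as a multiple of the 75th percentile of the array, on log axes, for 4 genes (left) and for the summed markers of 5 cell types (right) on each of the 4 arrays, 1 point per array. Col8a1, Col8a2, Col9a3 and Lamb1 are highest on heterozygous sucrose, as is the choroid plexus sum (76.8 against 4.86 to 6.71), while the endothelial sum is 25.2 there.

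The remaining network-forming chains include those of type IV, the basement membrane collagen. Col4a1 and Col4a2, which assemble as the ubiquitous type IV trimer and are transcribed from opposite strands with start sites 21 bases apart on chromosome 8 (GRCm38.p6), differed little. Col4a1 had levels of 0.680, 0.718, 0.771 and 0.782 and Col4a2 of 0.640, 0.656, 0.668 and 0.696 on wild-type starch, wild-type sucrose, heterozygous starch and heterozygous sucrose. Both genes were lowest on wild-type starch and highest on heterozygous sucrose, with log2 differences between those arrays of 0.20 and 0.12. Col4a4, a chain of the type IV trimer of kidney and some other specialised membranes, had levels of 0.0108, 0.0196, 0.0152 and 0.0306 in that order. It was higher on sucrose in both genotypes, by 0.86 and 1.02. This probe (chr1:82445053-82445112, minus strand, mm9) lies in the dimmest quartile, where 1 repeated probe put the spot error of a difference at 0.631, and with another background correction (normexp) the value in heterozygous mice was 0.28. A dimmer probe of Col4a4 passed the flag on the sucrose arrays only. In wild-type mice it had levels of 0.00703 on starch and 0.00682 on sucrose, and so showed no diet difference. In heterozygous mice its bound for diet was 0.64. At their brightest probes Col4a5 and Col4a6 stayed within 0.43 of zero in every pairwise comparison. A dimmer probe of Col4a5 gave 0.48 for diet in heterozygous mice, 0.59 for genotype on sucrose and 0.49 for both factors. Col10a1, a short-chain network collagen of hypertrophic cartilage, had levels of 0.0291, 0.0248, 0.0338 and 0.0185 and was lowest on heterozygous sucrose, by 0.87 for diet in heterozygous mice. Its only probe lies in the dimmest quartile too.

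None of the 11 fibril-forming chains passed 2-fold in any comparison at its brightest probe. A dimmer probe of Col24a1, above background on the wild-type arrays only, had levels of 0.00876 on wild-type starch and 0.0864 on wild-type sucrose, a difference of 3.30 where the brightest probe had -0.33. Between heterozygous sucrose and wild-type starch 10 of the 11 had a difference above zero (47.4% of all genes), with a median of 0.43 against -0.02 over all genes. These are the brightest probes, and dimmer probes of Col5a2 and Col11a2 gave -0.10 and -0.13, and 1 of Col5a3 a bound of -0.58. Col5a1, a chain of type V collagen that helps to set fibril diameter, had levels of 0.309 and 0.555 on starch and sucrose in wild-type mice and 0.325 and 0.504 in heterozygous mice (1 probe, chr2:27894595-27894654, mm9). Both sucrose arrays were above both starch arrays, by 0.85 and 0.63, and genotype differed by 0.07 and -0.14. At 1.5-fold and at the brightest probe, Col5a1 and Col4a4 were the members that differed by diet in the same direction in both genotypes, 2 of 53 against 1.39% of genes, and no member did so for genotype (0.320% of genes). Col22a1, a collagen of tissue junctions, had levels of 0.643 and 0.932 in wild-type and 0.637 and 0.900 in heterozygous mice on starch and sucrose, differences of 0.53 and 0.50 that lie just below 1.5-fold. A dimmer probe of Col22a1 ran the other way, by -0.15 and -0.18.

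**Figure D3:**
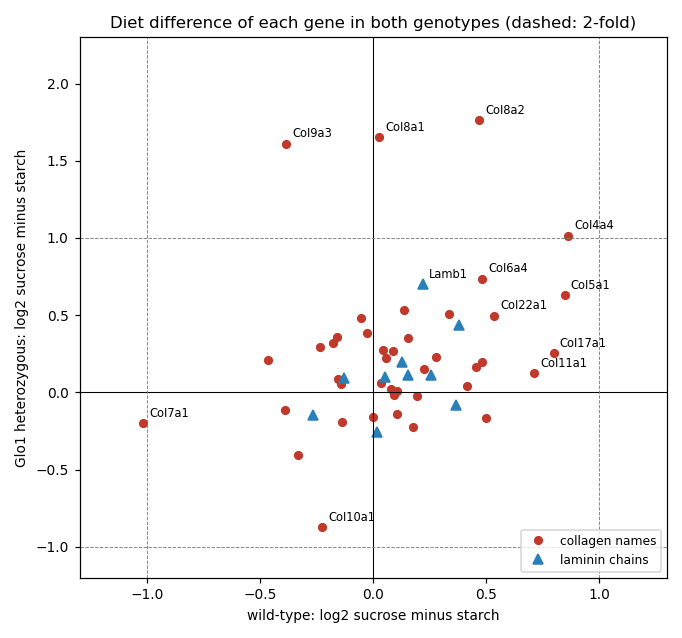
Log2 difference of sucrose minus starch for 52 of the 53 members in wild-type (x axis) and heterozygous mice (y axis), with collagen names as circles, laminin chains as triangles and dashed lines at 2-fold. Col5a1 (0.85 and 0.63) and Col4a4 (0.86 and 1.02) are high on both axes, whereas Col8a1 (0.03 and 1.65) and Col9a3 (-0.39 and 1.61) are high on the y axis only.

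Col1a1, which encodes the alpha1 chain of type I collagen, was the only member past 1.5-fold for genotype on starch (1 of 53, against 4.12% of genes). It is also the member measured with the most spots, since 2 of its probes, which overlap at chr11:94813075-94813174 (mm9), were printed 10 times each. For the first of them the levels over spots were 0.301 ± 0.021 on wild-type starch, 0.413 ± 0.020 on wild-type sucrose, 0.456 ± 0.012 on heterozygous starch and 0.512 ± 0.028 on heterozygous sucrose (mean ± SD over 10 spots, 9 on heterozygous starch). All spots on wild-type starch lay between 0.270 and 0.334, below the lowest spot of the other arrays (0.375). The spots on heterozygous sucrose (0.474 to 0.559) lay above those of heterozygous starch (0.432 to 0.471) and wild-type sucrose (0.375 to 0.446), and these last 2 arrays overlapped. The other of these probes, which overlaps the first and is not independent of it, gave the same order of arrays. The spread is technical, because the spots of an array share 1 pool of mice. The log2 differences were 0.46 and 0.17 for diet in wild-type and heterozygous mice and 0.60 and 0.31 for genotype on starch and sucrose. Another, dimmer probe gave 0.07 for genotype on both diets and 0.14 for diet in both genotypes, and a still dimmer one gave 0.24 and -0.25 for genotype on starch and sucrose.

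**Figure D4:**
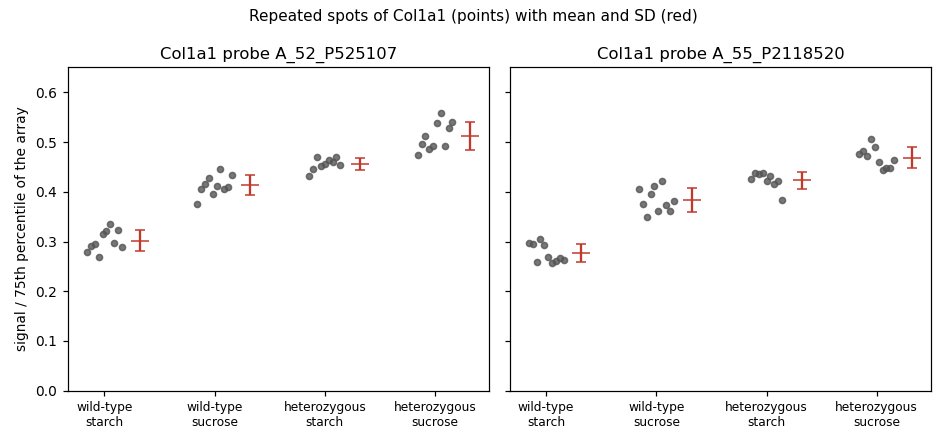
Signal of every spot of the 2 overlapping Col1a1 probes as a multiple of the 75th percentile of the array, by array (points), with the mean and SD over spots in red. On both panels the wild-type starch spots lie below all others and the heterozygous sucrose spots lie highest.

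Col1a2, the partner chain of type I, had levels of 2.71, 3.10, 3.16 and 3.10 on wild-type starch, wild-type sucrose, heterozygous starch and heterozygous sucrose. As for Col1a1 the wild-type starch array was lowest, by 0.19 to 0.22, while the other 3 arrays were alike. Col3a1, the type III chain of vessels and soft connective tissue, had levels of 0.165, 0.171, 0.190 and 0.221, and Col5a2 of 0.0329, 0.0366, 0.0485 and 0.0618. Both were higher in heterozygous mice on each diet, as was Col1a1. Col5a2 differed by 0.56 and 0.76 for genotype on starch and sucrose, and a dimmer probe gave 0.18 for both. Even the brighter of these probes lies in the dimmest quartile. The 7 melanocyte markers summed to 0.363, 0.300, 1.52 and 0.911, with 4 of 6 measured past 2-fold higher in heterozygous mice on starch and 4 of 6 on sucrose, and the fibroblast markers were above zero for genotype in 10 of 11 on starch (median 0.17) and 9 of 11 on sucrose (median 0.06), against 45.9% and 45.3% of all genes. The part of these cells in the genotype differences of Col1a1, Col3a1 and Col5a2 was not tested. Col11a1 was highest on wild-type sucrose, with levels of 0.112, 0.183, 0.143 and 0.156, and a second probe gave 0.90 for diet in wild-type mice against 0.71 for the brightest.

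Among the beaded-filament chains, which form the microfibrils of type VI collagen, no gene passed 2-fold. Col6a1 had levels of 3.88, 4.18, 4.19 and 4.205 on wild-type starch, wild-type sucrose, heterozygous starch and heterozygous sucrose, Col6a2 of 0.143, 0.130, 0.124 and 0.129 and Col6a3 of 0.135, 0.164, 0.149 and 0.175. At these probes wild-type starch was lowest for Col6a1 and Col6a3 and highest for Col6a2. Dimmer probes did not bear this out, since 2 of Col6a2 were highest on wild-type sucrose (0.0320 and 0.0232) and 1 of Col6a3 was highest on wild-type starch (0.0341). Col6a4 was higher on sucrose by 0.48 and 0.74. The other fibril-associated collagens (8 genes besides Col9a3) lay between -0.39 and 0.71 in the pairwise comparisons of diet and of genotype, and Col16a1, the one with the highest signal, had levels of 1.65, 1.86, 1.98 and 1.69.

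The 2 multiplexins, Col15a1 and Col18a1, carry the domains from which restin and endostatin are cut. Col18a1 had levels of 0.310, 0.273, 0.321 and 0.402 and was highest on heterozygous sucrose, by 0.55 over wild-type sucrose. Of the 4 transmembrane collagens Col17a1, the hemidesmosomal type XVII chain, had levels of 0.0596, 0.104, 0.0425 and 0.0507 (chr19:47721454-47721513, minus strand, mm9), so wild-type sucrose was high. Its genotype difference on sucrose was -1.03 with this probe, yet its other probe gave 1.24, so the 2 probes of the gene contradict each other in sign. Col7a1, the anchoring-fibril collagen, had levels of 0.462, 0.228, 0.391 and 0.341 (1 probe, chr9:108886855-108886914, mm9). Wild-type sucrose was the low array, by 1.02 for diet in wild-type mice, and diet differed by -0.20 in heterozygous mice. Col26a1 had levels of 0.744, 0.993, 0.853 and 0.878, and Col4a3bp, which is no chain, of 4.61, 4.96, 4.78 and 4.33.

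None of the 11 laminin chains passed 2-fold in any comparison at its brightest probe, and at 1.5-fold Lamb1 was the only one to pass for diet or genotype. Dimmer probes above background on every array did pass. One of Lama4 had levels of 0.0434, 0.0637, 0.177 and 0.0603 on wild-type starch, wild-type sucrose, heterozygous starch and heterozygous sucrose, and one of Lamb3, a beta chain of epithelia, had levels of 0.0285, 0.0417, 0.104 and 0.0257. Both were high on heterozygous starch, by 2.03 and 1.86 over wild-type starch, where the brightest probes of these genes gave 0.15 and -0.36. Another probe of Lama4 gave -1.28 for both factors. A dimmer probe of Lamb1 gave 1.62 for both factors and 1.03 for diet in wild-type mice. Among the alpha chains, which carry most of the receptor-binding domains, Lama2 had levels of 0.701, 0.726, 0.691 and 0.742 on wild-type starch, wild-type sucrose, heterozygous starch and heterozygous sucrose, Lama4 of 0.238, 0.284, 0.264 and 0.286, and Lama5 of 0.717, 0.783, 0.832 and 0.952. Lama4 and Lama5 are the alpha chains of endothelial laminins and Lama2 that of the outer, glial layer of the vessel wall. Their differences between heterozygous sucrose and wild-type starch were 0.08 (Lama2), 0.27 (Lama4) and 0.41 (Lama5) at the brightest probes. Dimmer probes on every array gave -1.28, -0.50 and 0.48 for Lama4 and 0.29, -0.13 and -0.46 for Lama2. Lama1, the alpha chain of pial and early basement membranes, was lowest on wild-type starch at 0.758, with 0.978, 0.980 and 0.926 on the other arrays. Its dimmer probe was instead highest on wild-type starch at 0.0186, with 0.0182, 0.0154 and 0.0178 on the other arrays. Lamb2 had levels of 0.534, 0.488, 0.471 and 0.501 and, unlike Lamb1, was highest on wild-type starch. Lamc1, the gamma chain of most laminins, had levels of 1.55, 1.72, 1.71 and 1.85.

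Markers of 2 other sources also differed between arrays beside the diet differences of Col5a1 and Col7a1. The 10 striatal neuron markers on the array summed to 35.7, 57.7, 53.6 and 30.9 on wild-type starch, wild-type sucrose, heterozygous starch and heterozygous sucrose, 9 of the 10 having an interaction below -1. Markers of red blood cells (6 genes) summed to 277, 135, 235 and 152, lower on both sucrose arrays. Their part in the differences of Col5a1 and Col7a1 was not tested.

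Of the 7 chains that make up vascular basement membranes (Col4a1, Col4a2, Lama4, Lama5, Lamb1, Lamb2 and Lamc1), none passed 2-fold, and all 7 were above zero for diet in heterozygous mice and for genotype on sucrose, where 50.1% and 45.3% of all genes were. The medians were 0.11 and 0.10, against 0.00 and -0.02 over all genes. These signs are those of the brightest probes: the 3 other probes of Lama4 gave -0.83, -0.09 and -1.56 for diet in heterozygous mice. Of their 10 partners in basement membranes, 7 were above zero for diet in heterozygous mice (median 0.08), 10 for genotype on sucrose (median 0.29) and 3 for diet in wild-type mice (median -0.04). Among them Nid2, a nidogen that links laminin to type IV collagen, had levels of 0.0741, 0.0776, 0.0883 and 0.136 and was the only one past 1.5-fold, by 0.62 for diet in heterozygous mice and 0.81 for genotype on sucrose. Its paralogue Nid1 had levels of 0.473, 0.471, 0.566 and 0.518 and was highest on heterozygous starch. The perlecan gene Hspg2 (0.312, 0.311, 0.317 and 0.345) was highest on heterozygous sucrose, by a smaller margin than Nid2. Of 12 measured receptors for collagen and laminin none passed 2-fold (Itga2 was below background). Itga7, a laminin-binding integrin, was highest on heterozygous sucrose at a level of 1.87, against 1.24 on heterozygous starch and 1.27 on wild-type sucrose, whereas Itga6 (3.39, 3.35, 3.82 and 3.75) and Dag1, the dystroglycan gene (6.02, 6.95, 7.29 and 7.41), were higher in heterozygous mice on both diets. All of these lists share the arrays with the members. The choroid plexus markers were highest on heterozygous sucrose as well, and the part of those cells in these differences was not tested.

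Over the 53 members the median log2 difference was 0.10 for diet in wild-type mice, 0.15 for diet in heterozygous mice, 0.07 and 0.09 for genotype on starch and sucrose and 0.23 for both factors, while the median over all genes lay between -0.02 and 0.00. With the mean over a gene's probes in place of the brightest, the medians were 0.078 for diet in heterozygous mice and 0.13 for both factors. For both factors 38 of the 53 were above zero, against 47.4% of all genes. The highest of the 4 arrays was heterozygous sucrose for 25 of the 53 members (47.2%), against 21.8% of all genes, and the lowest was wild-type starch for 24 (45.3%), against 26.9%. These counts describe 4 pools, and members are not replicates of a group. The summed choroid plexus and ependymal markers were also highest on heterozygous sucrose, and the part of those cells in these counts was not tested. A member's probes often disagreed: of the 29 members with 2 or more probes on every array, all probes had the same sign in 14 for diet in heterozygous mice and in 16 for genotype on sucrose.

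An additive model of diet and genotype (limma, 1 residual degree of freedom, Benjamini-Hochberg adjustment over 42094 probes) called no member at an adjusted p under 0.05, and no other probe in this setting (28 probes, none a member's brightest, passed for diet with normexp). The smallest adjusted p-values among members were 0.532 for diet and 0.733 for genotype. At an unadjusted p under 0.05 there were 9 members for diet (17.0%, against 8.80% of probes) and 8 for genotype (15.1%, against 6.42%). The model takes the interaction as error, so a gene high on 1 array only, such as Col8a1, is hard for it to call. With a prior variance that follows the signal the smallest adjusted p among members for diet was 0.133, at Col5a1, and 1 probe, not the brightest of any member, passed.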

How the data were processed

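RNA of 4 pools was read on 4 arrays. The deposited intensity values are the processed signals of Agilent Feature Extraction 11.5.1.1 (per the submitters' processing notes), background-subtracted and detrended per the file headers. The authors' series matrix holds each signal as a ratio to the 75th percentile of its array. From the intensities, log2 signals minus each array's log2 75th percentile were computed, without control and outlier-marked spots, averaging the spots of a probe. A gene was taken at its brightest probe. Differences of single arrays were counted at 2-fold and set against all genes. Where a probe passed the background flag on 1 side only, its difference is a lower bound.

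Named in full were members past 2-fold, members past 1.5-fold in the same direction at both levels of the other factor, the 10 with the highest signal and the subunits of the main trimers; others appear as examples chosen after their values were seen. A result for 1 member and 1 marker gene is not reported here. The members, lists and comparisons were chosen with earlier results of these data known. The additive fit used limma 3.58.1 in R 4.3.3 and was tested on simulated data. Probe coordinates are mm9, per the files; promoters are RefSeq, GRCm38.p6. Whether a probe lies in a coding or untranslated exon was not determined here. The alternatives were normexp (offset 50), median, quantile and cyclic loess scaling, the series matrix, no filter on dim probes, members on every array only, the mean over probes, outlier spots kept and a 1.5-fold threshold; using every other probe of a named member was added after seeing the data. The number of arrays limits the precision.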

Additional observations from a re-analysis of the deposited data

How the results depend on the processing

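No paired analysis was possible because each group had 1 array, and for the same reason no replicate could be left out. Of the alternative values of the counts, medians and fits over members, 106 stayed the same and 14 moved. With every other probe of a named member, added after seeing the data, 34 single-gene values stayed the same, 143 moved, and 1 value past 2-fold changed sign. Values below 2-fold that changed sign count among those that moved, such as Col8a2 for diet in wild-type mice (0.47 to -0.50). With normexp the members past 2-fold were 0 for wild-type diet and 2 for both factors, and the median for both factors was 0.16. Without the filter on dim probes they were 2 for wild-type diet, 2 for genotype on starch and 5 for the interaction. At 1.5-fold they were 5 and 8 for diet in wild-type and heterozygous mice, 1 and 8 for genotype on starch and sucrose, 9 for both factors and 8 for the interaction. With the mean over probes the medians were 0.078 for diet in heterozygous mice and 0.13 for both factors. The genotype difference of Col17a1 on sucrose reversed to 0.10 with the mean over probes and to 1.24 with its other probe. Col8a1 and Col8a2 stayed past 2-fold under all 9 alternatives of processing in each comparison that called them, but the other probe of Col8a2 gave 0.68 for both factors. Col9a3 did so except for both factors with normexp (0.76), and Col7a1 fell short with normexp (-0.89). Col4a4 fell short under 4 of 9 for diet in heterozygous mice and with normexp for both factors (0.39). The additive fit called no member at its brightest probe under any of the 3 other settings run, but 28 other probes for diet with normexp and 1 with the trend prior (smallest member adjusted p 0.0812, Col5a1, normexp). Signals near background limit what the dim probes show.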

Other observations

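The enzymes that modify, cut and cross-link collagen, and those that degrade it, did not move as a block. Of 25 measured biosynthesis genes none passed 2-fold in a pairwise comparison, and the medians of the list lay between -0.06 and 0.07 in the comparisons of diet and of genotype. P4ha1, a prolyl hydroxylase subunit, had levels of 0.635 and 0.382 on starch and sucrose in wild-type mice and 0.547 and 0.400 in heterozygous mice, lower on sucrose by 0.73 and 0.45 on the log2 scale. Serpinh1, the collagen chaperone HSP47, was also lower on sucrose in both genotypes, with levels of 0.713 and 0.526 in wild-type and 0.774 and 0.653 in heterozygous mice. Pcolce2, an enhancer of procollagen cleavage, and Adamts14, a procollagen N-propeptidase, were highest on heterozygous sucrose: Pcolce2 had levels of 0.299, 0.357, 0.320 and 0.563 on wild-type starch, wild-type sucrose, heterozygous starch and heterozygous sucrose, and Adamts14 of 0.0974, 0.0976, 0.0946 and 0.183.

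Among 9 measured genes of matrix turnover none passed 2-fold in a pairwise comparison, and Mmp3 and Mmp13 were below background. Timp1, an inhibitor of matrix metalloproteinases, had levels of 0.360, 0.208, 0.242 and 0.207 and was highest on wild-type starch. Mmp9, a gelatinase, had dim levels of 0.0124, 0.0168, 0.0210 and 0.0139 and an interaction of -1.04. Of 8 small proteoglycans, Dcn (decorin, which binds collagen fibrils and is also among the fibroblast markers above) had levels of 2.78, 2.69, 2.95 and 5.19, with heterozygous sucrose high by 0.81 over heterozygous starch and 0.95 over wild-type sucrose. Bgn, the related biglycan gene, had levels of 0.159, 0.139, 0.112 and 0.106 and was lowest on that array.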
